A study of Mus musculus with 25 samples.

Results

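The genes examined here are 10 genes that build the milk fat droplet and the triglyceride inside it: Btn1a1, Xdh, Plin2, Cidea, Gpam, Dgat1, Dgat2, Lpin1, Cd36 and Fabp3. They were taken by name from a table of 34866 genes, and each was found once. In the secretory alveolar cell, fatty acids taken up from blood or made in the cell are joined to glycerol in the endoplasmic reticulum, and the triglyceride is stored in cytoplasmic lipid droplets. The droplets are coated by perilipin 2, grow by fusion, and leave the cell wrapped in apical membrane, where butyrophilin and xanthine oxidoreductase form the coat under the membrane. After weaning, the alveolar cells die, the gland regresses and adipocytes refill the fat pad.

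RNA was sequenced from mammary organoids, the fragments enriched in epithelium that remain after enzymatic digestion of the gland, in 5 groups of 5 libraries, all from Brca1/P53-deficient mice, in which a Cre recombinase under the K14 promoter removes both genes from only some of the cells. The nulliparous mice were untreated and age-matched with the 60 day groups. The untreated and cabergoline-treated multiparous mice had gone through 2 pregnancies and were taken 60 days after the end of lactation. Another untreated and another cabergoline-treated group of multiparous mice, from a separate set of animals, were taken at 1 day, so time and experiment cannot be told apart. Cabergoline, a dopamine agonist that blocks prolactin release, is labelled as 0.2 mg per kg, while the methods give another dose. The sources give no age in days for the libraries, and figure legends of the study count the samples as mice. These legends count fewer than 5 mice in the untreated 60 day group and in the cabergoline 1 day group. They do not name a library left out, and all 5 libraries of each group were used here.

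Levels are in TPM, a length-adjusted measure that sums to 1000000 in each library. TPM hold no counts, and depth is therefore unknown. At 1 day a single transcript, the pseudogene Gm12895, held 28.0% to 56.8% of all TPM, against at most 10.5% in the other groups. TPM were therefore divided by a median-of-ratios factor, which lay between 0.264 and 0.937 at 1 day and between 1.12 and 2.00 elsewhere, and levels below are scaled TPM unless stated. A pair of libraries went against their groups in milk protein genes, but not in Gm12895, which held 41.3% of TPM in untreated 1 day replicate 3 and 0.147% in untreated 60 day replicate 2. Untreated 1 day replicate 3 held 0.216% of its TPM in 8 milk protein genes, against 6.77% to 32.4% in the other libraries at 1 day, and its summed level of 14 epithelial genes was 14.8 deposited TPM, with 6554 deposited TPM in 9 muscle genes. Untreated 60 day replicate 2 held 5.60% in milk protein genes, against 0.0038% to 0.298% in the other libraries of the nulliparous and 60 day groups. Results that moved with these libraries are also given without them. The organoid label was also checked against the epithelial genes. Their summed level was 25.6 to 70.6 deposited TPM in the other untreated libraries at 60 days and 27.0 to 398 deposited TPM with cabergoline at 60 days, whereas the 9 muscle genes summed to as much as 37474 deposited TPM. Fewer epithelial cells and less RNA per cell cannot be told apart in such samples.

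Upstream sequences of 5 of the 10 genes, from the RefSeq promoter table of GRCm38.p6, are used here: Plin2, Gpam, Lpin1, Cd36 and Fabp3. Upstream is counted from the start of each entry, which need not be the start of the annotated gene. Btn1a1, Xdh, Dgat1 and Dgat2 had no entry there, and Cidea was not among the genes searched. The 250 bases before the start of Plin2, which was high at 1 day, of Lpin1, which differed less, and of Gpam, whose group medians lay between 13.8 and 25.5 TPM, are shown to give the letters that were searched. Each was searched on both strands for the STAT5 type motif TTCNNNGAA, the direct repeat of AGGTCA with 1 base between the copies, which binds PPAR with RXR, a single AGGTCA, which was added after the sequences had been seen, and the E-box CANNTG. Capitals mark a match to AGGTCA or its complement on the other strand, or to CANNTG. The stretches are chr4:86670060-86670309 for Plin2, chr12:16610967-16611216 for Lpin1 and chr19:55127239-55127488, the farther upstream of its entries, for Gpam, all on the minus strand.
Plin2: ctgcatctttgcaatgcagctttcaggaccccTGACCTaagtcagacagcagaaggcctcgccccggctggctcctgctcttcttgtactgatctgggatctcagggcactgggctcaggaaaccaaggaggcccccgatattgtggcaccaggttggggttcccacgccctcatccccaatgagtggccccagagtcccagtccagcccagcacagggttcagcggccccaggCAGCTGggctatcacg
Lpin1: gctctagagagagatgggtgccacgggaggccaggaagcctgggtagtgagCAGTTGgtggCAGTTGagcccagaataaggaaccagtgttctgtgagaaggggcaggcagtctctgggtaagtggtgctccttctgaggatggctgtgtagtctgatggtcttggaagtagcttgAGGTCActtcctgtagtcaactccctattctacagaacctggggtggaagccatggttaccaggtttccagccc
Gpam: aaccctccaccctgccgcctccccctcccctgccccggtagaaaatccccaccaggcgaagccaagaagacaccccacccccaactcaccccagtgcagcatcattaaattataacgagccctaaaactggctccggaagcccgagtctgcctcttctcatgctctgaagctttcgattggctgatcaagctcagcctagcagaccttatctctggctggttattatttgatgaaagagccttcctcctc
TTCNNNGAA and the direct repeat had no match in these 3 windows, while 7.02% and 0.033% of all 32851 windows of the same length in the table held them. AGGTCA, which lies inside the direct repeat, was matched in 14.0% of all windows and, among the 3 shown, in Plin2, from base -218 to -213 before the start, and in Lpin1, from base -74 to -69. CANNTG was matched in 66.2% of all windows and, among those shown, in Plin2 and Lpin1. The printed window of Gpam held none of the motifs, but its other entry, chr19:55099478-55099727, held AGGTCA from base -196 to -191, so what is found for Gpam depends on the entry. Of the windows not printed, that of Cd36 held AGGTCA and CANNTG and that of Fabp3 held CANNTG. The window of Cd36 and the other window of Gpam lie inside the annotated span of their genes. The window of Fabp3 runs past the annotated start of the gene, with 143 of its 250 bases in annotated untranslated sequence. Its match, from base -45 to -40, lies after that start. The windows give the letters only, and no binding was measured.

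Btn1a1 (GRCm38 chr13:23456992-23465901, minus strand) encodes butyrophilin, a membrane protein of the milk fat globule. In cabergoline-treated mice at 1 day its scaled level was 699, 238, 523, 432 and 187 TPM in replicates 1 to 5, and at 60 days it was 0.66, 4.35, 20.4, 37.8 and 13.8 TPM. In untreated mice at 1 day it was 1256, 162, 1.23, 1643 and 1102 TPM, and at 60 days 3.38, 831, 3.20, 5.58 and 1.02 TPM. The nulliparous libraries lay between 9.76 and 122 TPM. With cabergoline the groups at 1 and 60 days did not overlap, while without treatment the library low in milk protein genes at 1 day and the library high in them at 60 days crossed over. The share of all genes with such gaps in scaled level was not computed. Here and for the genes below, these gaps are therefore only a description.

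Xdh (chr17:73883895-73950196, minus strand) encodes xanthine oxidoreductase, which purine breakdown uses as an enzyme and which the droplet coat uses as a structural partner of butyrophilin. Its scaled level with cabergoline was 177 to 712 TPM at 1 day (median 431) and 25.4 to 93.0 TPM at 60 days (median 35.8), with no overlap. In untreated mice at 1 day it was 858, 158, 18.7, 1050.3 and 944 TPM, and at 60 days 28.2, 616, 126, 80.8 and 14.2 TPM. Its nulliparous median was 79.7 TPM.

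Plin2 (chr4:86648386-86670060, minus strand) encodes perilipin 2, the main coat protein of lipid droplets in milk-secreting cells. Its scaled level with cabergoline at 1 day was 1672, 1401, 1367, 1295 and 630.4 TPM, and at 60 days 31.4, 20.9, 74.5, 86.2 and 41.4 TPM. In untreated mice at 1 day it was 2167, 282, 34.0, 1613 and 1678 TPM, and at 60 days 29.8, 837, 186, 48.5 and 20.4 TPM. It had the highest median TPM of the 10 genes in both groups at 1 day, and with cabergoline its libraries at 1 and 60 days did not overlap.

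Cidea (chr18:67343604-67367785, plus strand) encodes a protein of the lipid droplet surface that promotes droplet fusion and is also a marker of brown fat. Its scaled level at 1 day was 384, 228, 255, 249 and 85.1 TPM with cabergoline, and 619, 43.3, 0.17, 959 and 997 TPM without. With cabergoline at 60 days it was listed at 0 in 4 libraries and at 0.06 TPM in replicate 5. In untreated mice at 60 days it was listed at 0 in replicates 1 and 5 and was 31.6, 45.2 and 0.22 TPM in replicates 2, 3 and 4. Replicate 3, the highest of these, also had the highest summed level of 6 brown adipocyte genes of all 25 libraries, at 269 scaled TPM. Replicate 4 had the next highest, 192 scaled TPM, with Cidea at only 0.22 TPM. Cabergoline 60 day replicate 3 had 75.9 scaled TPM in these genes with Cidea listed at 0. Untreated replicates 3 and 4 and cabergoline replicate 3 were also rich in the 9 muscle genes, at 7855, 24902 and 16704 scaled TPM. Untreated replicate 2 was the library rich in milk protein genes, with 6.39 scaled TPM in the brown adipocyte genes. The part of brown fat RNA and of muscle RNA in the level of untreated replicate 3 was not tested.

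Fabp3 (chr4:130308595-130315463, plus strand) encodes the heart type fatty acid binding protein, which carries fatty acids in the cytosol of muscle and of lactating mammary cells. Its scaled level with cabergoline was 432, 439, 420.1, 214 and 78.5 TPM at 1 day, and 6.34, 13.2, 31.9 and 1.96 TPM in replicates 1, 2, 3 and 5 at 60 days, where replicate 4 was listed at 0. In that replicate 4 only 14469 genes reached 1 TPM, against 17436 to 18298 in the rest of its group. The part of this lower detection in its 0 was not tested. In untreated mice it was 370.2, 101, 41.3, 1052 and 1445 TPM at 1 day and 3.19, 328, 24.3, 28.3 and 2.87 TPM at 60 days. The nulliparous range was 1.89 to 7.57 TPM, below every library at 1 day. At 60 days, after replicate 2, the highest untreated libraries were replicates 3 and 4, which also held 7855 and 24902 scaled TPM in the 9 muscle genes, and the part of muscle RNA in these levels was not tested.

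Cd36 (chr5:17781690-17888801, minus strand) encodes a fatty acid transporter that endothelium, adipocytes, macrophages and alveolar cells share. Its groups all overlapped. With cabergoline it was 97.7 to 375 TPM at 1 day (median 201) and 51.5 to 316 TPM at 60 days (median 92.6), and without treatment 59.1 to 590.0 TPM (median 400.2) and 18.6 to 476 TPM (median 59.3). The nulliparous median was 92.6 TPM, with replicate 1 at 501 TPM. The highest library at 60 days in each treatment was replicate 3, with 1468 scaled TPM of 12 adipocyte genes in the untreated and 957 in the cabergoline-treated library, against at most 1062 in any other library at 60 days, and the part of adipocyte RNA in these levels was not tested.

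Of the enzymes of triglyceride assembly, Gpam (chr19:55067268-55127238, minus strand), the mitochondrial acyltransferase that starts glycerolipid synthesis, had group medians of 13.8 to 25.5 scaled TPM. Dgat1 (chr15:76502015-76511953, minus strand), which adds the last fatty acid to make triglyceride, had group medians of 37.8 to 55.5 scaled TPM, and its lowest and highest libraries were 23.4 and 76.7 TPM. Dgat2 (chr7:99153658-99182719, minus strand), which catalyses the same step and is abundant in adipocytes, had medians of 23.7 TPM in nulliparous mice, 22.5 and 8.40 TPM in untreated and cabergoline-treated mice at 60 days, and 7.12 and 5.82 TPM at 1 day. Its highest level, 198 TPM, was in untreated 60 day replicate 3. Lpin1 (chr12:16535669-16610966, minus strand), the phosphatase that makes diacylglycerol, ranged from 28.1 to 114 TPM with cabergoline at 1 day and from 16.2 to 52.3 TPM at 60 days, and from 27.5 to 76.2 TPM and 15.3 to 271 TPM without. The 3 highest untreated libraries at 60 days were replicate 2, rich in milk protein genes, at 271 TPM, and replicates 4 and 3, rich in muscle genes, at 96.9 and 74.0 TPM. All neighbouring groups in the order of medians overlapped for these 4 genes.

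**Figure D1:**
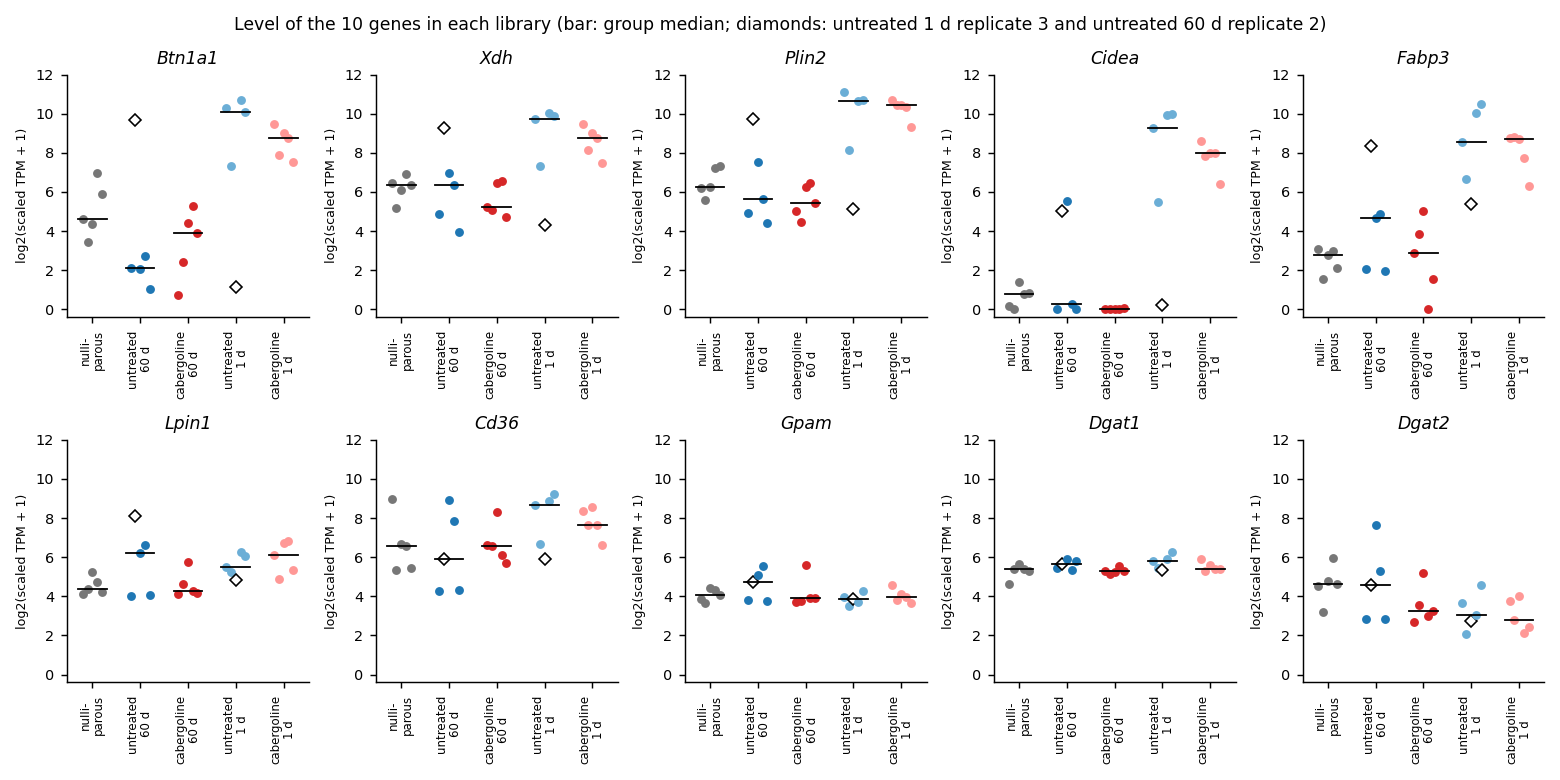
Level of each of the 10 genes as log2(scaled TPM + 1) on the vertical axis, with 1 point per library in the 5 groups and bars at the group medians. Diamonds are untreated 1 day replicate 3 and untreated 60 day replicate 2. Btn1a1, Xdh, Plin2, Cidea and Fabp3 with cabergoline at 1 day lie above all nulliparous libraries, whereas Gpam and Dgat1 have similar medians in all groups. The share of all genes that lie so was not computed.

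The effect of cabergoline at 1 day was tested first. None of the 10 genes, and none of the 14733 genes tested, passed an adjusted p of 0.05 in limma (0% called, with 287 genes at an unadjusted p under 0.05). The fitted log2 fold change, cabergoline minus untreated, was 1.10 for Plin2 (SE 1.03), 0.52 for Btn1a1 (SE 1.54), 0.61 for Cidea (SE 1.56) and 0.31 for Xdh (SE 1.03). The median of the 10 was 0.23, beside 0.02 over all genes tested, and without untreated replicate 3 it was -0.45, beside 0.03. Both values and errors depended on untreated replicate 3. Without that library the values were 0.11 for Plin2 (SE 0.56), -1.05 for Btn1a1 (SE 0.67), -0.88 for Cidea (SE 0.87) and -0.66 for Xdh (SE 0.59), again with no gene called (0% of 13696, with 373 at an unadjusted p under 0.05). The sign of Btn1a1, Xdh and Cidea thus depended on 1 library. The remaining untreated libraries were themselves uneven, since replicate 2 had 162 scaled TPM of Btn1a1 where replicates 1, 4 and 5 had 1102 to 1643. Dgat1 (-0.23, SE 0.18) and Gpam (0.15, SE 0.18) had the narrowest errors.

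At 60 days the comparison of cabergoline-treated with untreated mice again gave no call among the 9 of the 10 genes that passed the filter on low values, and 0% over 17644 genes (207 at an unadjusted p under 0.05). Cidea was not tested here. Cabergoline minus untreated was -1.87 for Fabp3 (SE 1.36), -1.25 for Lpin1 (SE 0.76), -1.14 for Dgat2 (SE 0.88) and -0.96 for Plin2 (SE 0.92) on the log2 scale, and the median of the 9 was -0.71 beside -0.02 over all genes. Without untreated replicate 2, Fabp3 was -0.85 (SE 1.17), Lpin1 -0.66 (SE 0.63), Plin2 -0.13 (SE 0.64) and Btn1a1 1.40 (SE 0.91) in place of -0.19 (SE 1.59), with 0% called and a median of -0.33 beside -0.05 over all genes. The difference of the treatment effect between 60 days and 1 day was tested as an interaction, and 0% of 18232 genes were called (256 at an unadjusted p under 0.05). The largest interactions among the 10 were those of Cidea, -2.84 (SE 2.09), and Plin2, -2.04 (SE 1.45), and without both libraries these were -0.49 (SE 1.42) and -0.22 (SE 0.91), while that of Btn1a1 moved from -0.79 (SE 2.33) to 2.40 (SE 1.12), with no gene called in either fit.

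Whether parity left a change was read from the multiparous groups at 60 days against nulliparous mice, which share the nulliparous libraries. Untreated minus nulliparous had no call (0% of 17960 genes, 441 at an unadjusted p under 0.05), with -1.60 for Btn1a1 (SE 1.51), 1.95 for Fabp3 (SE 1.09) and 1.29 for Lpin1 (SE 0.73). Without untreated replicate 2, Fabp3 was 0.93 (SE 0.72), Lpin1 0.71 (SE 0.58) and Btn1a1 -3.19 (SE 0.70, adjusted p = 0.401 in limma). In the other 4 untreated libraries the scaled level of Btn1a1 was 1.02 to 5.58 TPM, against 9.76 to 122 TPM in the nulliparous libraries, with no overlap. The share of all genes with no overlap in this split was not computed, so this gap is only a description. The summed level of the epithelial genes was likewise 15.3 to 54.1 scaled TPM in these 4 libraries and 119 to 2225 in nulliparous mice, and its part in the level of Btn1a1 was not tested. Cabergoline minus nulliparous also had no call (0% of 18077 genes, 878 at an unadjusted p under 0.05), with -1.80 for Btn1a1 (SE 0.92), -1.13 for Dgat2 (SE 0.57) and -1.02 for Plin2 (SE 0.45).

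Time after weaning was compared within each treatment. With cabergoline, 5 of the 9 genes other than Cidea were called higher at 1 day than at 60 days and none lower, while 12.2% of all 16457 genes were called higher and 9.14% lower, 21.4% in all. Cidea passed the filter on low values only through its 5 libraries at 1 day, so that it had to differ, and its fitted difference of 7.70 on the log2 scale is a description that also depends on the pseudocount. By limma with Benjamini-Hochberg adjustment, Fabp3 was higher by 5.41 (SE 0.87, adjusted p = 0.00221), Btn1a1 by 5.21 (SE 0.77, adjusted p = 0.00134), Plin2 by 4.76 (SE 0.41, adjusted p = 5.40e-05) and Xdh by 3.00 (SE 0.46, adjusted p = 0.00170). For Lpin1 the difference was 1.42 (SE 0.44, adjusted p = 0.0429), and with 7 of the 10 libraries left out in turn it no longer passed, with an adjusted p of up to 0.105. On unscaled TPM it was -0.14. Cd36, at 1.13 (SE 0.50, adjusted p = 0.126), passed only when cabergoline 60 day replicate 3 was left out, with 1.54 and an adjusted p of 0.0185, among the single libraries left out in turn. Gpam (-0.13, SE 0.36), Dgat1 (0.25, SE 0.15) and Dgat2 (-0.47, SE 0.52) were not called. The median of the 9 was that of Lpin1, 1.42, beside -0.08 over all genes tested.

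The same contrast in untreated mice had no call among the 10 genes with all libraries, where 0.883% of 16312 genes were called higher and 1.21% in either direction. The differences were 4.67 for Cidea (SE 1.92, adjusted p = 0.214 in limma), 4.34 for Btn1a1 (SE 2.06), 3.80 for Fabp3 (SE 1.32), 2.68 for Plin2 (SE 1.31) and 1.96 for Xdh (SE 1.26). Leaving out untreated 60 day replicate 2 alone gave no call among the 10 (0.74% of genes called higher), and leaving out untreated 1 day replicate 3 alone gave 1, Cidea at 6.29 (SE 1.42, adjusted p = 0.0463), beside 2.32% called higher and 3.35% in all. Without untreated 1 day replicate 3 and untreated 60 day replicate 2, a choice made after their milk protein levels had been seen, 5 of the 10, Cidea among them, were called higher and none lower, beside 6.38% and 3.82% of 14712 genes, 10.2% in all. Btn1a1, Xdh, Plin2 and Fabp3 were lowest of their group in the first of these libraries and highest in the second. Leaving both out therefore widened their differences, and these calls are only a description. Btn1a1 then differed by 7.47 (SE 0.70, adjusted p = 0.00186), Cidea by 6.87 (SE 1.39, adjusted p = 0.0254), Fabp3 by 5.46 (SE 0.97, adjusted p = 0.0185), Plin2 by 4.48 (SE 0.81, adjusted p = 0.0194) and Xdh by 3.67 (SE 0.80, adjusted p = 0.0307). Lpin1 (0.52, SE 0.61), Gpam (-0.69, SE 0.42), Dgat1 (0.23, SE 0.23), Dgat2 (-1.31, SE 1.04) and Cd36 (1.97, SE 1.11) were not called. Cidea passed the filter here through 4 libraries at 1 day and only 1 at 60 days, so its call is only a description. That library, untreated 60 day replicate 3, had the highest summed level of the brown adipocyte genes and was also rich in muscle genes.

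Against nulliparous mice, untreated mice at 1 day had 1 of the 10 genes called higher, Fabp3 (5.66, SE 0.88, adjusted p = 0.00925 in limma), where 2.54% of 16869 genes were called higher and 3.1% lower, 5.64% in all. Cidea followed at 6.18 (SE 1.61, adjusted p = 0.0502). The nulliparous mice were age-matched with the 60 day groups, and the 1 day mice came from a separate set of animals. Parity, recent lactation, age and experiment therefore cannot be told apart in this contrast. Without replicate 3 at 1 day, 6 of the 10 were called higher, and none lower, beside 5.78% and 7.15% of 16419 genes, 12.9% in all. This library was set aside after its milk protein levels had been seen, and each of the 6 had its lowest scaled level of the group in it. Leaving it out therefore raised their mean level at 1 day, and these calls are only a description. Cidea differed by 7.80 (SE 0.82), Fabp3 by 6.35 (SE 0.70), Btn1a1 by 4.52 (SE 0.81), Plin2 by 3.59 (SE 0.60), Xdh by 3.03 (SE 0.56) and Lpin1 by 1.20 (SE 0.29, adjusted p = 0.0301). For Lpin1 the direction held only after scaling, since with all libraries it was 1.03 scaled (SE 0.31) and -0.88 on unscaled TPM. Unscaled TPM moved the median of all genes from -0.17 to -1.74 in this contrast, from -0.12 to -1.61 for untreated and from -0.08 to -1.42 for cabergoline-treated mice at 1 day against 60 days. Dgat1, which was not called in any of the 3, turned from 0.47, 0.13 and 0.25 to -1.46, -1.71 and -1.32 in the same order, that is, above the shifted median against nulliparous mice and with cabergoline, and below it for untreated mice at 1 day against 60 days.

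**Figure D2:**
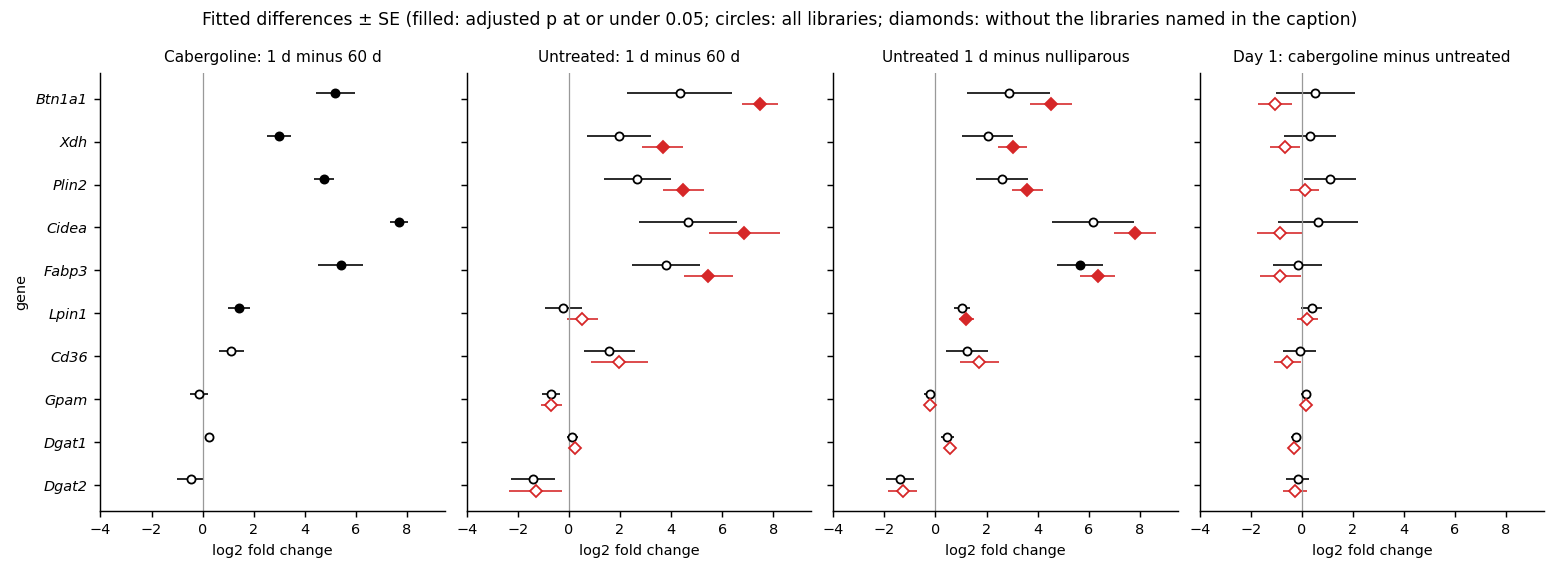
Fitted log2 fold changes (horizontal axis, ± SE) of the 10 genes in 4 comparisons, filled where the adjusted p was at or under 0.05. Circles use all libraries. Diamonds leave out untreated 1 day replicate 3, and in the second comparison untreated 60 day replicate 2 as well. With cabergoline, 5 genes and Cidea, which passed the filter only through its level at 1 day, are filled for 1 day against 60 days. In untreated mice 5, Cidea among them, were filled once both libraries, chosen after their milk protein levels had been seen, were left out.

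Epithelial and milk protein genes moved with the same contrast. With cabergoline all 14 epithelial genes and all 8 milk protein genes were called higher at 1 day, with a median log2 difference of 4.18 for the epithelial genes, and the summed epithelial level was 714 to 2478 scaled TPM at 1 day and 17.1 to 245 at 60 days. Of 11 adipocyte genes tested 2 were called higher, Lep and Lipe, and of 9 muscle genes none, with a median of -1.53. Lep and the milk protein gene Lao1 reached 1 TPM in no library at 60 days, so that, like Cidea, they passed the filter only through the 1 day libraries and had to differ, and their calls are a description. The summed adipocyte level was 281 to 911 scaled TPM at 1 day and 82.6 to 957 at 60 days. The share of TPM in mitochondrial genes moved as well, with 1.27% to 2.60% with cabergoline at 1 day and 3.74% to 13.3% at 60 days and no overlap, and it was 2.14% to 39.8% in nulliparous mice, with replicate 1 the highest. The part of epithelial RNA and of the mitochondrial share in the differences of the 10 genes was not tested. To describe this, each gene was divided by the summed epithelial level within its library, a ratio chosen after the data were seen and not tested. Plin2 then had 0.628 to 0.883 TPM per epithelial TPM at 1 day and 0.304 to 1.83 at 60 days with cabergoline, so the groups overlapped. Btn1a1 (0.138 to 0.286 against 0.0387 to 0.373) and Fabp3 (0.110 to 0.255 against 0 to 0.371) also overlapped. The ratio of Xdh was 0.164 to 0.287 at 1 day and 0.261 to 2.10 at 60 days. The ratio of Cidea was 0.117 to 0.165 at 1 day and at most 0.00058 at 60 days. There 4 libraries were listed at 0, and their ratio is 0 whatever the divisor. Cidea also passed the filter only through the 1 day libraries, so this gap is only a description. The order was the other way, with no overlap, for Lpin1 (0.0163 to 0.0757 at 1 day and 0.174 to 0.948 at 60 days), Dgat1 (0.0221 to 0.0573 and 0.152 to 2.26), Gpam (0.00756 to 0.0165 and 0.141 to 0.720), Dgat2 (0.00226 to 0.00702 and 0.0693 to 0.312) and Cd36 (0.116 to 0.172 and 0.530 to 5.72). The divisor itself did not overlap between these groups, and 77.2% of all 16457 genes had a lower ratio at 1 day with no overlap, so these 5 did as most genes did, whereas 0.352% had a higher ratio with no overlap. In untreated 60 day replicate 2, the ratio was 0.308 for Btn1a1, 0.310 for Plin2 and 0.0117 for Cidea. The ranges in the 4 untreated libraries at 1 day other than replicate 3 were 0.334 to 0.555, 0.545 to 0.629 and 0.0934 to 0.373. Btn1a1, Plin2, Cidea and Cd36 lay below the range of these libraries, Xdh, Gpam, Dgat1, Dgat2 and Fabp3 inside it and Lpin1 above it. Xdh lay at the lower edge, with 0.22827 against a lowest value of 0.22815. The divisor was 4518 deposited TPM in replicate 2 against 280 to 1133 in these libraries. The share of all genes in each place was not computed, so these places are only a description.

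**Figure D3:**
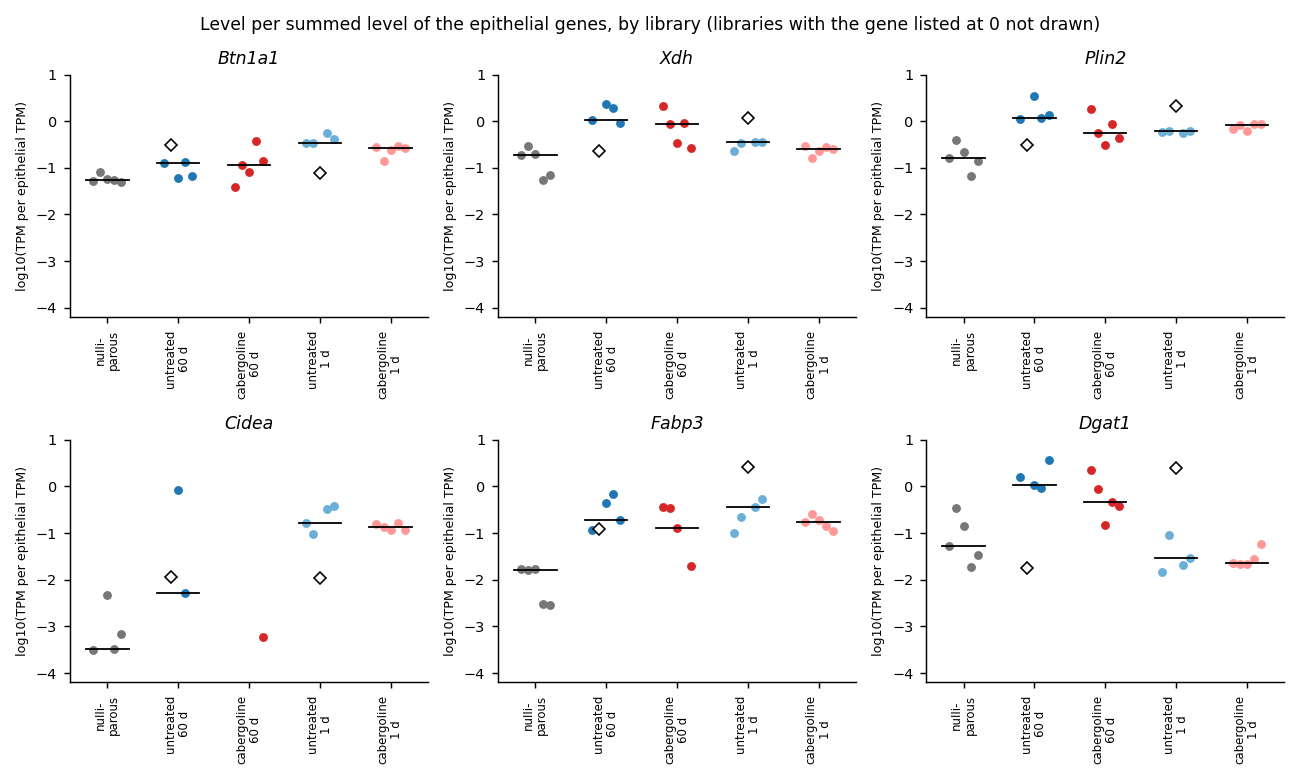
Level of 6 genes per summed level of the epithelial genes, as log10 of the ratio of deposited TPM on the vertical axis, by group and library, with bars at group medians and diamonds for both libraries that went against their groups in milk protein genes. Cidea with cabergoline lies at 0.117 to 0.165 at 1 day and at most at 0.00058 at 60 days, where the 4 libraries listed at 0 are not drawn. It passed the filter only through the 1 day libraries, so this gap is only a description. Plin2 overlaps between these groups.

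The share of a gene within its family does not depend on the scaling. Dgat1 made up 75.9% to 92.4% of the summed Dgat1 and Dgat2 TPM with cabergoline at 1 day, 76.8% to 93.0% in untreated mice at 1 day, 51.1% to 87.9% and 22.9% to 89.8% with and without cabergoline at 60 days, and 40.0% to 83.7% in nulliparous mice, so that all these ranges overlapped. Plin2 was 95.0% to 96.0% of all 5 perilipins with cabergoline at 1 day and 40.9% to 87.4% at 60 days, with no overlap. The others of this sum are Plin1 and Plin4, best known from adipocytes, the widely present Plin3, and Plin5, the form of oxidative tissues. Fabp3 was 2.33% to 4.03% of Fabp3, Fabp4 and Fabp5 in nulliparous mice, 26.3% to 62.6% with cabergoline at 1 day and 25.7% to 75.2% in untreated mice at 1 day. Lpin1 was 20.5% to 33.0% of the lipins in nulliparous mice and 36.5% to 71.0% in untreated mice at 1 day, without overlap. Cidea was 97.1% to 99.4% of the 3 Cide genes with cabergoline at 1 day, but 11.1% in untreated 1 day replicate 3.

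These shares were compared as log2 ratios with exact two-sided permutation tests. Of the 42 planned comparisons 39 could be computed, since Cidea with cabergoline at 60 days left 1 library above 0. None had an adjusted p at or under 0.05, and 10 had an unadjusted p under 0.05. The smallest p that 5 against 5 libraries allow is 0.00794, and the 6 comparisons at that p had an adjusted p of 0.0516. They were Plin2 (difference 3.60 on the log2 scale) and Fabp3 (3.20, with 1 library left out for a 0) for cabergoline at 1 day against 60 days, Lpin1 (1.97) and Fabp3 (5.07) for untreated 1 day against nulliparous mice, and Fabp3 in both 60 day groups against nulliparous mice (2.25 without and 1.60 with cabergoline). The value of 1.60 leaves out cabergoline replicate 4, whose share of 0% lies below the nulliparous range, so its p and lack of overlap hold for 4 libraries only and are not read as a difference. The value of 2.25 was 1.14 without untreated 60 day replicate 2, which had a share of 75.1% where the others had 4.23% to 10.1% (exact p = 0.0159, adjusted p = 0.0774). Leaving out untreated 1 day replicate 3 brought 7 to an adjusted p of 0.0442 in the exact test, Plin2 for untreated 1 day against nulliparous mice among them (3.16). Leaving out cabergoline 60 day replicate 4 also brought 7 there, with Gpam for cabergoline at 1 day against 60 days as the added one (-0.95). Both sets of 7 hold Fabp3 for cabergoline at 60 days without its library at 0, and Fabp3 for untreated mice at 60 days with replicate 2. Cabergoline against untreated at 1 day gave shares that differed by -0.04 for Dgat1 (exact p = 0.897) and 0.90 for Plin2 (exact p = 0.452).

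**Figure D4:**
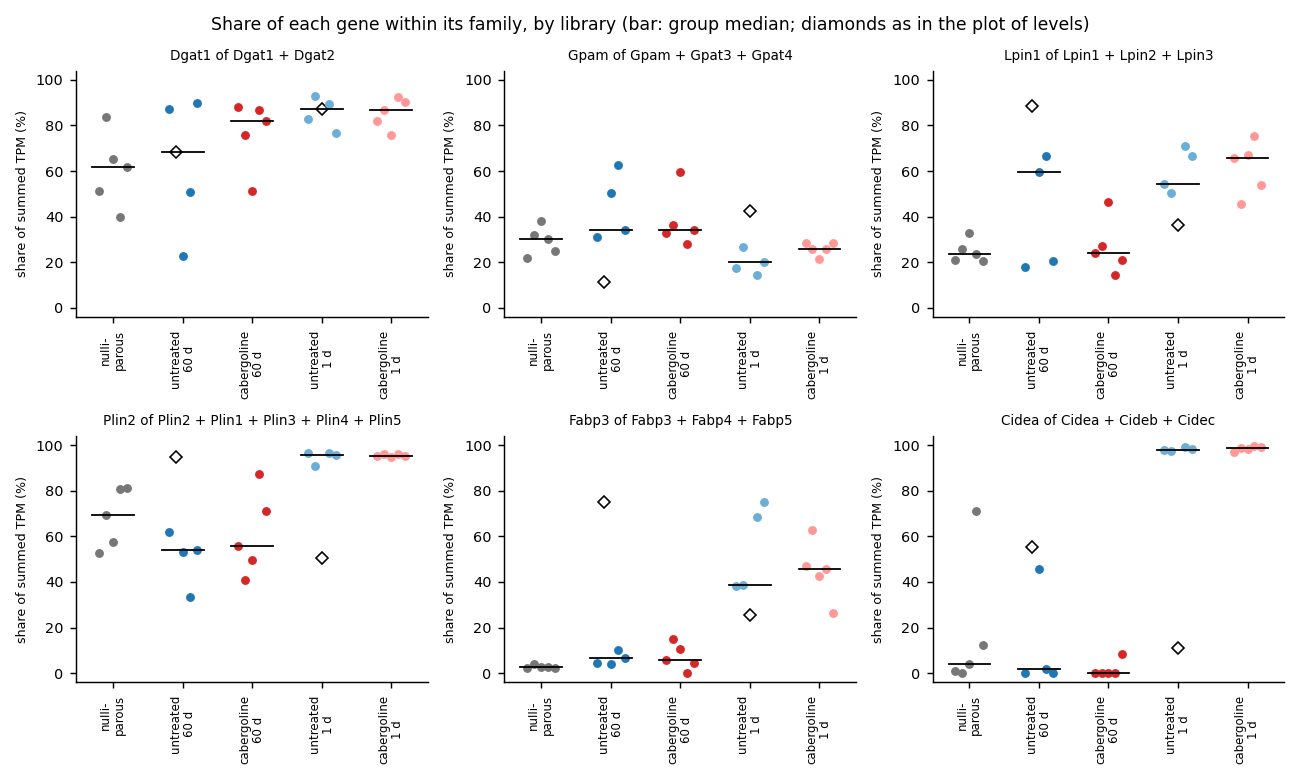
Share (vertical axis, % of summed TPM) of 6 genes within their families, by group and library, with bars at group medians and diamonds for the same libraries as in the plot of levels. Plin2 holds 95.0% to 96.0% with cabergoline at 1 day and Fabp3 2.33% to 4.03% in nulliparous mice.

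The other genes of the pathway were read from 6 lists in the same contrast, cabergoline at 1 day against 60 days, beside the 12.2% of genes called higher and 9.14% called lower. Of 6 secretion genes tested 5 were called higher and none lower: Muc1 (5.32, SE 0.35) and Muc15 (5.72, SE 0.55), mucins of the fat globule membrane, and Folr1, the folate receptor also found in milk (6.35, SE 0.51), had the smallest p values. Of 7 lipolysis genes 4 were called higher and none lower, with Abhd5, the co-activator of adipose triglyceride lipase, at 3.54 (SE 0.37), Lipa, the lysosomal acid lipase, at 2.13 (SE 0.27), and Pnpla2, adipose triglyceride lipase itself, at 1.81 (SE 0.33). Of 14 uptake and activation genes 6 were called higher and 1 lower, with Dbi, the acyl-CoA binding protein, at 4.04 (SE 0.65), the transporter Slc27a4 at 1.28 (SE 0.24), and Acsl4, which couples fatty acids to coenzyme A, at 2.22 (SE 0.45).

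Assembly genes were mixed. Of 11 tested, 1 was called higher and 3 lower, with Lpin2 at -1.16 (SE 0.24), Agpat4 at -1.22 (SE 0.25) and Agpat3 at -0.74 (SE 0.17), the last 2 being acyltransferases of the step after Gpam. Of 10 droplet genes 2 were called higher, the perilipin Plin3 at 1.76 (SE 0.28) and the small GTPase Rab18 at 1.82 (SE 0.35). Of 9 regulators 3 were called higher, Thrsp, which promotes fatty acid synthesis in the lactating gland, at 3.83 (SE 0.48), Pparg, the adipogenic nuclear receptor, at 1.96 (SE 0.52), and Cebpa at 0.72 (SE 0.22). Agpat4 was also the gene of these lists called in untreated mice at 1 day against 60 days with all libraries (-1.39, SE 0.26, adjusted p = 0.0360 in limma), and Agpat4 (-1.28, SE 0.23) and Lpin2 (-1.15, SE 0.24) were those called against nulliparous mice. No gene of the 6 lists was called for cabergoline at either time or for parity.

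The genes most like each of the 10 across libraries were ranked by Pearson r of log2(scaled TPM + 1), as a description over libraries that share their composition. Over the 15 libraries of the nulliparous and 60 day groups, Btn1a1 was nearest to Lcn2 (r = 0.98), Plin2 to Fads1 (r = 0.97), Xdh to Armh4 (r = 0.97), Cidea to Fasn (r = 0.94), Fabp3 to Slc25a34 (r = 0.94), Cd36 to Cavin2 (r = 0.96), Lpin1 to Ucp3 (r = 0.95), Gpam to Crat (r = 0.94), Dgat1 to Bscl2 (r = 0.83) and Dgat2 to Mapk8ip1 (r = 0.94). Fads1 and Fasn act in fatty acid desaturation and synthesis, and Bscl2 encodes seipin, a protein of droplet formation. Without untreated 60 day replicate 2 r was 0.97, 0.94, 0.94, 0.90, 0.90, 0.96, 0.90, 0.94, 0.82 and 0.96 in the same order. Over the 10 libraries at 1 day, Plin2 was nearest to Epcam (r = 1.00), an epithelial gene, Btn1a1 to Trf (r = 1.00), the iron carrier of milk and plasma, and Dgat1 to Srebf1 (r = 0.95), a regulator of lipid synthesis. Without untreated 1 day replicate 3 they were 0.98, 0.99 and 0.95. Of the rest, Xdh was nearest to Timp1, Cidea to Sftpd, Fabp3 to Arl4a, Cd36 to Edem3, Dgat2 to Prkar2b, Lpin1 to Txndc15 and Gpam to Mgp, with r from 0.96 to 0.99.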

How the data were processed

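Total RNA depleted of ribosomal RNA was sequenced from mammary organoids in 25 libraries. Gene levels were deposited as TPM, which the authors had estimated by Salmon against GRCm38, in a single table, and the annotation release is not given in the sources used here. The table pairs no symbols with its 34866 identifiers, so 34582 symbols were taken from a name table and gene positions from GENCODE annotation of GRCm38. TPM keeps no counts, so the edgeR test of the study could not be used and depth is unknown.

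TPM were divided by median-of-ratios factors, computed within each comparison for the tests and over all 25 libraries (9778 genes) for the levels. limma 3.58.1 in R 4.3.3 (lmFit, eBayes with trend) was run on log2(scaled TPM + 1) for genes that reached 1 TPM in 5 or more libraries of the fit, on the groups compared only, with Benjamini-Hochberg adjustment over all genes tested and a threshold of 0.05. Fold changes are on this log2 scale with a pseudocount of 1, which understates the change of low genes. Shares were tested by exact two-sided permutation in Python 3.11.15 with numpy 2.4.6 and pandas 2.3.3, figures used matplotlib 3.10.9, and promoter sequences came from RefSeq (GRCm38.p6). The tests were checked on simulated data.

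All 10 genes are named, and from each other list at most the 3 called genes with the smallest p. For likeness 3 genes per member were ranked by r and the nearest is named. The genes and lists were chosen with earlier results of these data known. Marker lists of endothelium (2 of 8 genes called lower for cabergoline at 1 day against 60 days), macrophages (0 of 7) and T cells (0 of 6) were also read. The alternatives were unscaled TPM, quantile normalization, a pseudocount of 0.1, no filter, library quality weights, a block on the replicate number, medians for the shares and each library left out in turn.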

Additional observations from a re-analysis of the deposited data

Results flagged for a closer look

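Among 50 combinations of the 10 genes and 5 groups, 4 had a library far from the other 4 of its group, by Dixon's test at the 95% level on log2(scaled TPM + 1), a rule that chance alone meets in about 1 of 20 groups. Btn1a1 was high in untreated 60 day replicate 2 (1391 deposited TPM), the library rich in milk protein genes. Plin2 was low in cabergoline 1 day replicate 5 (462 deposited TPM), which also had the lowest milk protein share of its group, 12.7%. Gpam was high in cabergoline 60 day replicate 3 (76.0 deposited TPM), the library of its group with the highest summed adipocyte and muscle genes. Cidea was at 0.105 deposited TPM in cabergoline 60 day replicate 5, where the other 4 libraries were listed at 0 and any value above 0 in a single library would have met the rule.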

How the results depend on the processing

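Quantile normalization, a pseudocount of 0.1 and medians for the shares kept each total of calls, and each count among the 10 genes, within 1.5 times. For untreated 1 day against nulliparous mice, quantile normalization nevertheless gave 430.0 higher and 283 lower calls, in place of 429 and 523. Without scaling, calls rose to 12043 (61 higher, 11982 lower) for untreated and 12345 (467 higher, 11878 lower) for cabergoline-treated mice at 1 day against 60 days, and to 14069 (68 higher, 14001 lower) against nulliparous mice. With all genes so shifted, 4, 3 and 4 of the 10 genes were called lower, and 2 higher in the last. Dgat1 then reversed to -1.71, -1.32 and -1.46, and Lpin1 to -0.14 for cabergoline at 1 day against 60 days and -0.88 against nulliparous mice. Library quality weights gave 1 call for cabergoline at 1 day, 2 at 60 days, 41 for cabergoline against nulliparous mice and 2 for the interaction. They gave 8633, 8649 and 10699 calls for the 3 time contrasts, with 6 of the 10 genes higher and 2 lower in the first and 7 higher and 1 lower in the third. Over all genes the first had 3238 higher and 5395 lower of 16312 tested, and the third 3827 higher and 6872 lower of 16869. The cause was not tested. Without a filter, 517 genes were called for untreated 1 day against nulliparous mice.

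With the replicate number as a block, calls fell to 7 for untreated 1 day against 60 days and to 561 for untreated 1 day against nulliparous mice. For cabergoline at 1 day against 60 days, 7 in place of 6 of the 10 genes, Cidea included, were called, Cd36 being the added one. Over all 16457 genes in that fit, 1749 were called higher and 1153 lower. The labels give no shared source for a number, and in no comparison did every same-numbered pair correlate above 0.1, since 0 to 4 of 5 pairs did.

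Leaving out single libraries gave 38 to 523 calls for untreated 1 day against 60 days (0 to 1 of the 10 genes higher), 1987 to 4833 for cabergoline (4 to 7 higher, with Cidea counted where it was tested), 186 to 2123 for untreated 1 day against nulliparous mice (1 to 6 higher), 0 to 1 for the untreated parity contrast (1 without nulliparous replicate 4) and for cabergoline at 60 days (1 without its replicate 4), and 0 to 7 shares. The highest count was without untreated 1 day replicate 3 in both untreated contrasts and the lowest without replicate 4 at 1 day, in the first also without untreated 60 day replicate 4. With cabergoline the lowest was without replicate 1 at 1 day. Cidea fell below the filter when a cabergoline library at 1 day was left out. Without untreated 1 day replicate 3 and untreated 60 day replicate 2, 1500 genes and 5 of the 10, Cidea included, were called for untreated 1 day against 60 days. Depth is unknown, and p-values measure only the spread between these samples.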
